A study of Homo sapiens with 4 samples.

Results

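The genes described here are 38 genes of invasion, matrix adhesion and the epithelial-mesenchymal transition, out of 60658 gene rows in the tables. They were chosen by name, with earlier results of these data known, and each matched 1 row. They hold 5 transition factors, 3 regulators of epithelial identity, 4 cadherins and mesenchymal markers, 4 proteins of pericellular proteolysis, 6 integrin chains, 2 chains of laminin-332, 6 matricellular proteins, 3 genes of collagen and its crosslinking, 3 contractile proteins and 2 secreted regulators. The study transfected HT29 and LIM1215, established human colorectal cancer cell lines, with an siRNA against TMEM161A, a gene for a membrane protein, and measured cell growth, wound closure and invasion through Matrigel. An siRNA is a short RNA duplex that directs the degradation of a matching mRNA. RNA was sequenced from 4 groups, namely HT29 with a negative control siRNA, HT29 with the TMEM161A siRNA, LIM1215 with the control siRNA and LIM1215 with the TMEM161A siRNA. Each group had 1 library and the TMEM161A groups of both lines carried the same siRNA name, so there is no replicate, no test of a difference, and no second siRNA beside the first.

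In the epithelial-mesenchymal transition, epithelial cells loosen their junctions and take on a motile form. The factors SNAI1, SNAI2, ZEB1, ZEB2, TWIST1 and their relatives repress E-cadherin, while ESRP1, ESRP2 and GRHL2 maintain epithelial splicing and epithelial transcription. Invasion further needs integrins that grip the matrix, laminins and other matrix proteins that the grip acts on, and proteases that open a path. Colorectal carcinomas are known for holding both programmes side by side, with laminin-332 and the urokinase system often enriched at the invading edge of the tumour.

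Values are FPKM, fragments scaled to transcript length and to the library's mapped fragments, so levels may be compared between genes of a library. Between libraries the scale was not fully common, since summed FPKM ran from 785861 in the HT29 control to 894570 in LIM1215 with the TMEM161A siRNA. An FPKM of 1 corresponded to between 18.1 and 21.5 estimated fragments per kilobase, depending on the library. Percentages below compare FPKM between libraries, with 95% counting intervals (exact Clopper-Pearson) from estimated fragments. These intervals cover counting error only and say nothing of variation between cultures. A gene was called higher or lower at a log2 ratio of FPKM + 1 of at least 1 (2-fold), among the 14803 genes with a mean FPKM of at least 1 over the 4 libraries. The targeted gene was checked first. TMEM161A (chromosome 19, 19119169 to 19138513, minus strand) stood at 42.6 FPKM with the control and 4.64 with the TMEM161A siRNA in HT29, and at 39.1 and 7.61 in LIM1215 in the same order. The knockdown libraries thus held 10.9% (9.38% to 12.6%) and 19.4% (17.2% to 22.0%) of the control level, as their labels say of this gene.

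The labelled tissue was checked against markers before the results. Of 10 markers of colon epithelium, all 10 reached 1 FPKM in both LIM1215 libraries, and 5 did so in each HT29 library. KRT20, CDX1, VIL1, CDH17 and LGALS4 were under 1 FPKM in both libraries labelled HT29, and CDX1 was listed at 0 in both. VIL1, the microvillus protein villin, stood at 0.0397 FPKM in control HT29 cells and 192 in control LIM1215 cells, and was listed at 0 in the HT29 knockdown library. The keratins KRT8, KRT18 and KRT19 were at 647 FPKM or more in every library. The summed level of the list was 3092 and 3547 FPKM in the libraries labelled HT29, against 8156 and 10062 in LIM1215. HT29 is generally known to make villin and several of these colon proteins, so these values go against its label. The identity of the line was not tested further, and every difference between the lines below is a difference between the libraries so labelled. Of 9 fibroblast markers, 7 or 8 were under 1 FPKM in each library, with PDGFRA and LUM listed at 0 in all 4 and summed levels of 4.89 to 8.20 FPKM. ACTA2, smooth muscle actin, was the largest part of that sum, at 2.34 and 6.19 FPKM in HT29 and at 3.56 and 6.11 in LIM1215, control before knockdown. All 4 endothelial markers were under 1 FPKM in every library. Of 5 leukocyte markers, PTPRC and CD3E were listed at 0 in all 4 libraries, while CD68, a lysosomal protein, made up most of the sum of 6.66 to 74.3 FPKM.

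Promoter sequence is shown for 5 of the genes whose levels are contrasted below. E-boxes, AP-1 sites and TEAD sites are the elements that SNAI and ZEB factors, AP-1 and the YAP pathway are known to bind. All 5 sequences hold a match, and genes without one are not shown, so they do not tell how common the motifs are. Each is the 250 bases before the annotated start in the RefSeq promoter table of GRCh38.p14, written 5′ to 3′ along the gene's strand, with motif matches in capitals. In LAMB3 (chr1:209652426-209652675, minus strand), ZEB1 (chr10:31318966-31319215, plus strand) and IGFBP3 (chr7:45921273-45921522, minus strand) the capitals mark the E-box CAGGTG or its reverse complement.
LAMB3: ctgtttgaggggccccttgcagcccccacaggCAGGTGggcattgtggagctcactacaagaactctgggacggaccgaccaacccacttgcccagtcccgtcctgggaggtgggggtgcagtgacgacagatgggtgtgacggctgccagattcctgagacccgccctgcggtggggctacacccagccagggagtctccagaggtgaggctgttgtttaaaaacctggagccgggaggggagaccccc
ZEB1: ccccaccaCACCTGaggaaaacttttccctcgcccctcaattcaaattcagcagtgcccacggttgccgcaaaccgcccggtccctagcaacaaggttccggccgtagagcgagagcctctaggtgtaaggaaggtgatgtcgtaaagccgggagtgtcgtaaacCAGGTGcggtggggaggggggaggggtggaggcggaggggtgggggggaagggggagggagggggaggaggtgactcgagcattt
IGFBP3: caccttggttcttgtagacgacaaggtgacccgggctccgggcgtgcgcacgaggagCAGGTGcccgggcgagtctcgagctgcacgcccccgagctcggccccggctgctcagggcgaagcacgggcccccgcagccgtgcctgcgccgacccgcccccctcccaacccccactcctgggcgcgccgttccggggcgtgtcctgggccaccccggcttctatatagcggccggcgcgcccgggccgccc
In PLAUR (chr19:43670170-43670419, minus strand) the capitals mark an AP-1 match, and in CCN2 (chr6:131951373-131951622, minus strand) they mark TEAD matches.
PLAUR: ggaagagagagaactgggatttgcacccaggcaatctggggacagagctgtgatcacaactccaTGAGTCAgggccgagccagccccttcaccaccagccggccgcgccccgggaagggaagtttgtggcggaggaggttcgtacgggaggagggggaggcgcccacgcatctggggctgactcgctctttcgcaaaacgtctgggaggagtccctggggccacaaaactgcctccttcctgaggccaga
CCN2: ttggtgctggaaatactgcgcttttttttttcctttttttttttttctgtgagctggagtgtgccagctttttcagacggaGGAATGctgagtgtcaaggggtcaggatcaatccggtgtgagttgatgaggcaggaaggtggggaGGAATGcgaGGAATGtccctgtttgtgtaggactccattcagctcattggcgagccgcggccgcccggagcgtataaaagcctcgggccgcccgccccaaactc
The motifs searched, on both strands, were CAGGTG for the E-box, GGAATG for TEAD, TGANTCA for AP-1 and the CArG box of SRF. Of the 38 genes, 25 were in the table and 23 had a window within 1000 bases of their GENCODE canonical start. The E-box was found in 4 of the 23 windows, IGFBP3, LAMB3, PLAU and ZEB1, against 17.5% of all 35116 windows of the same length. TEAD matches were in 5, CCN2, ITGA5, ITGB1, SPARC and THBS1, against 11.9% of all windows. AP-1 matches were in MMP7 and PLAUR, against 6.57% of all windows, and the CArG box, in 1.16% of all windows, was in none of the 23. A match describes letters and is not evidence of binding.

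Of the 38 genes, 31 passed the filter on low values. The 7 that did not were SNAI2, ZEB2, CDH2, TNC, COL5A1, LOX and INHBA, and none of these exceeded 0.338 FPKM in any library. ZEB2, a transition factor, and CDH2, the N-cadherin of mesenchymal cells, were listed at 0 in all 4. At the other end ITGB1, the integrin beta chain shared by the receptors for collagen, fibronectin and laminin, had the highest level of the 38 in every library, from 203 FPKM in the HT29 control to 260 in LIM1215 with the same siRNA. The levels of all genes are plotted by role.

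**Figure D1:**
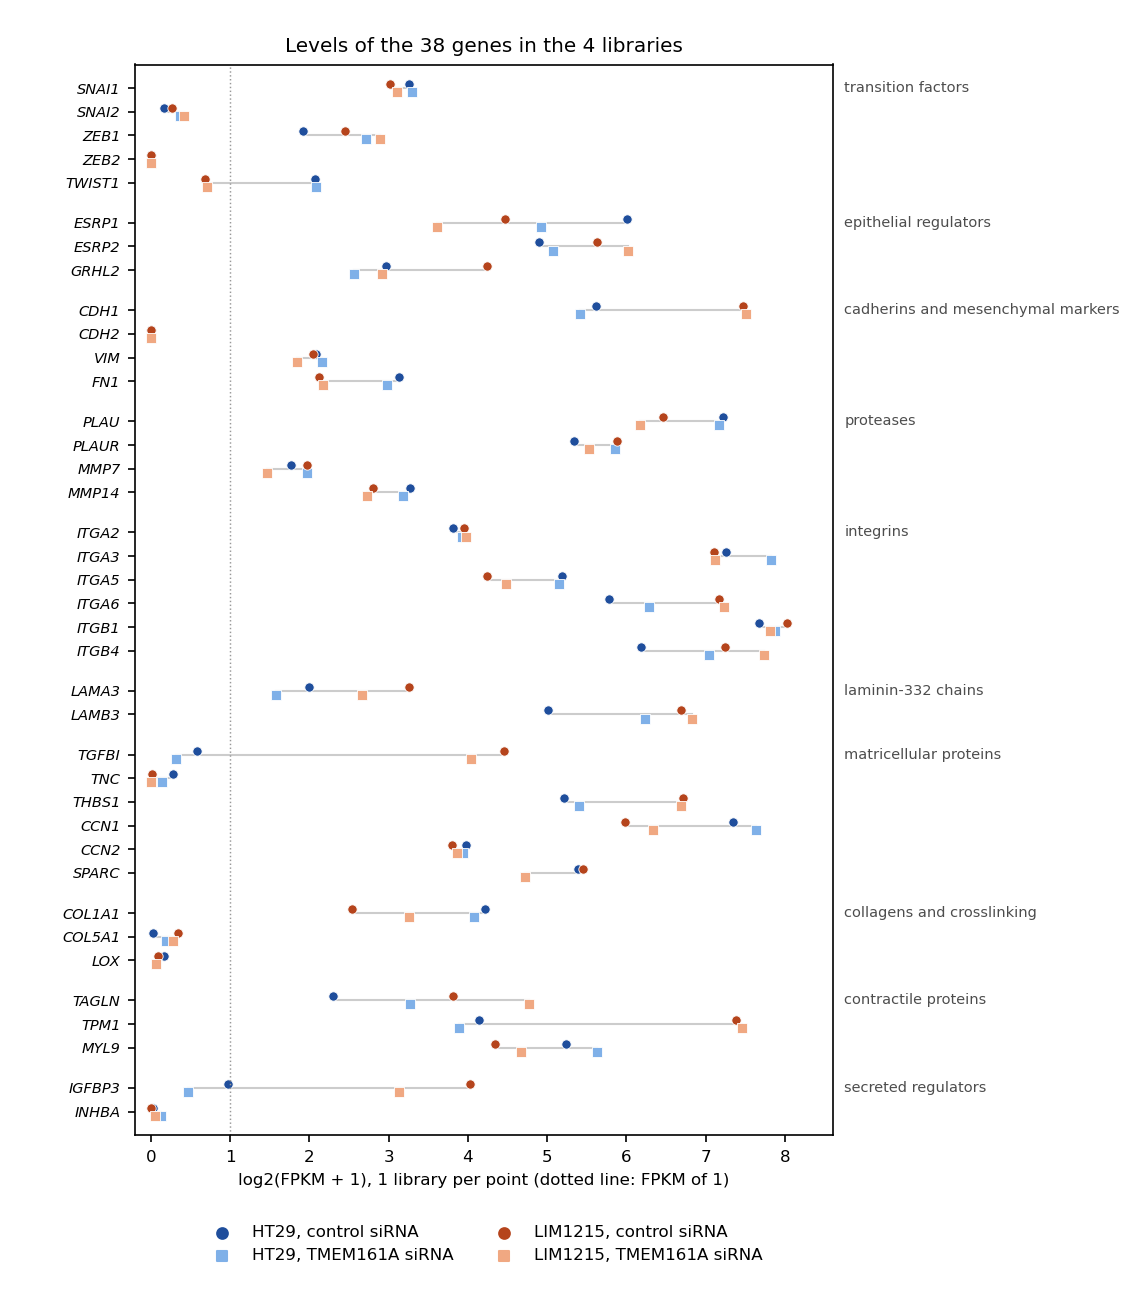
Level of each of the 38 genes as log2(FPKM + 1), grouped by role. Circles are control siRNA libraries and squares TMEM161A siRNA libraries, blue for HT29 and orange for LIM1215, with 1 library per point; the grey bar spans the 4 libraries. TGFBI, TPM1 and IGFBP3 separate the lines far more than the siRNAs, and 7 genes lie near 0 in all 4 libraries.

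The regulators of epithelial identity held the 2 lowest log2 ratios of the 31 genes that passed the filter, ESRP1 in HT29 and GRHL2 in LIM1215. ESRP1, an RNA-binding protein that directs epithelial splicing, stood at 63.6 FPKM with the control and 29.3 with the TMEM161A siRNA in HT29, and at 21.2 and 11.2 in LIM1215 in the same order. It was called lower in HT29, at 46.1% of control (43.8% to 48.4%; log2 ratio -1.09). In LIM1215 it was at 52.9% (48.4% to 57.7%; log2 ratio -0.86), short of the threshold. In bulk RNA, fewer cells that express a gene and less of its RNA per cell cannot be told apart. Its paralog ESRP2 was at 28.8 and 32.6 FPKM in HT29 and at 48.3 and 63.7 in LIM1215, control before knockdown. ESRP2 was thus at 113% (106% to 120%) and 132% (126% to 138%) of control, on the other side of no change from ESRP1 in both lines. The ratio of ESRP1 to ESRP2 was 2.21 before and 0.900 after knockdown in HT29, with 0.439 and 0.176 in LIM1215. ESRP1 was therefore the more abundant paralog in the HT29 control alone, and ESRP2 was so in the other 3 libraries. ESRP2 shares 4.37% of its exonic bases with NFATC3 on the opposite strand.

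GRHL2, a grainyhead factor that activates E-cadherin and other epithelial genes, stood at 6.80 FPKM with the control and 4.91 with the TMEM161A siRNA in HT29, and at 18.0 and 6.54 in LIM1215 in the same order. It was called lower in LIM1215, at 36.4% of control (33.2% to 39.8%; log2 ratio -1.33). In HT29 it was at 72.2% (64.4% to 80.8%; log2 ratio -0.40). The LIM1215 control thus stood apart from the other 3 libraries, which lay between 4.91 and 6.80 FPKM.

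E-cadherin, the product of CDH1 (chromosome 16, 68737292 to 68835537), did not follow ESRP1 and GRHL2. CDH1 was at 48.0 FPKM with the control and 41.6 with the TMEM161A siRNA in HT29, and at 176 and 182 in LIM1215 in the same order. The knockdown library held 86.6% of control in HT29 (83.0% to 90.3%) and 103% in LIM1215 (101% to 105%). The gap between the lines was larger than either, 3.68-fold (3.56 to 3.80) between the controls.

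Among the transition factors, ZEB1 was the one whose interval left out no change. ZEB1, a zinc-finger repressor of epithelial genes (chromosome 10, 31318495 to 31529814), stood at 2.77 FPKM with the control and 5.59 with the TMEM161A siRNA in HT29, and at 4.44 and 6.41 in LIM1215 in the same order. The knockdown library was at 202% of control in HT29 (177% to 231%; log2 ratio 0.81) and 144% in LIM1215 (128% to 162%; log2 ratio 0.45). The log2 ratio, taken after adding 1, stayed under the threshold. The antisense transcript ZEB1-AS1, whose gene overlaps ZEB1, was at 3.27 and 3.10 FPKM in HT29 and at 3.47 and 4.74 in LIM1215.

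SNAI1, the factor best known for repressing E-cadherin, was at 8.54 and 8.84 FPKM in HT29 and at 7.13 and 7.63 in LIM1215. Its knockdown library was at 103% of control in HT29 (87.3% to 123%) and at 107% in LIM1215 (88.1% to 130%). A change of SNAI1 mRNA in either line was therefore not detectable at this depth. TWIST1, a basic helix-loop-helix factor of the same programme, separated the lines and not the siRNAs. It was at 3.19 and 3.22 FPKM in HT29 and at 0.602 and 0.637 in LIM1215, the last 2 resting on an estimated 15.6 and 18.4 fragments. Between the controls it was 5.31-fold (3.09 to 9.73) lower in LIM1215. SNAI2 did not pass the filter and lay between 0.124 and 0.338 FPKM.

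None of the mesenchymal genes was called under the siRNA. VIM, the intermediate filament vimentin, was at 3.25 and 3.46 FPKM in HT29 and at 3.12 and 2.58 in LIM1215, with intervals that held no change in both lines. FN1, the matrix protein fibronectin, was at 7.76 and 6.89 FPKM in HT29, 88.8% of control (82.2% to 96.1%). In LIM1215 it was at 3.35 and 3.50 FPKM, 105% of control (92.6% to 118%). FN1 was lower in the LIM1215 control by 2.32-fold (2.09 to 2.58), and CDH2 was listed at 0 throughout.

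LAMB3 was the single gene of the 38 called higher after TMEM161A knockdown. LAMB3, the beta chain of laminin-332 (chromosome 1, 209614870 to 209652425, minus strand), stood at 31.3 FPKM with the control and 74.1 with the TMEM161A siRNA in HT29, and at 102 and 112 in LIM1215 in the same order. It rose to 236% of control in HT29 (226% to 248%; log2 ratio 1.22). In LIM1215, where the control already exceeded both HT29 libraries, it was at 110% (106% to 113%; log2 ratio 0.13). LAMA3, the alpha chain, lay below control in both lines, at 2.99 and 1.999 FPKM in HT29 and at 8.58 and 5.31 in LIM1215. LAMA3 was thus at 66.9% (59.3% to 75.6%) and 61.9% (57.3% to 66.8%) of control. The ratio of LAMB3 to LAMA3 was 10.5 in control and 37.1 in knockdown HT29 cells, with 11.9 and 21.1 in LIM1215.

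Integrin alpha 6 beta 4, the laminin-332 receptor of hemidesmosomes, had both chains above control in both lines, though neither was called. ITGB4, the beta chain (chromosome 17, 75721328 to 75757818), stood at 71.7 FPKM with the control and 131 with the TMEM161A siRNA in HT29, and at 150 and 212 in LIM1215 in the same order. The knockdown library was at 182% of control in HT29 (177% to 187%; log2 ratio 0.86) and 141% in LIM1215 (138% to 144%; log2 ratio 0.49). ITGA6, its partner, was at 54.0 and 77.0 FPKM in HT29, 143% of control (138% to 147%). In LIM1215 it was at 143 and 149 FPKM, 104% of control (102% to 106%). The ratio of ITGB4 to ITGA6 was 1.33 and 1.69 in HT29 and 1.05 and 1.43 in LIM1215, higher in the knockdown library of each line. The chart of chains places these partners side by side.

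**Figure D2:**
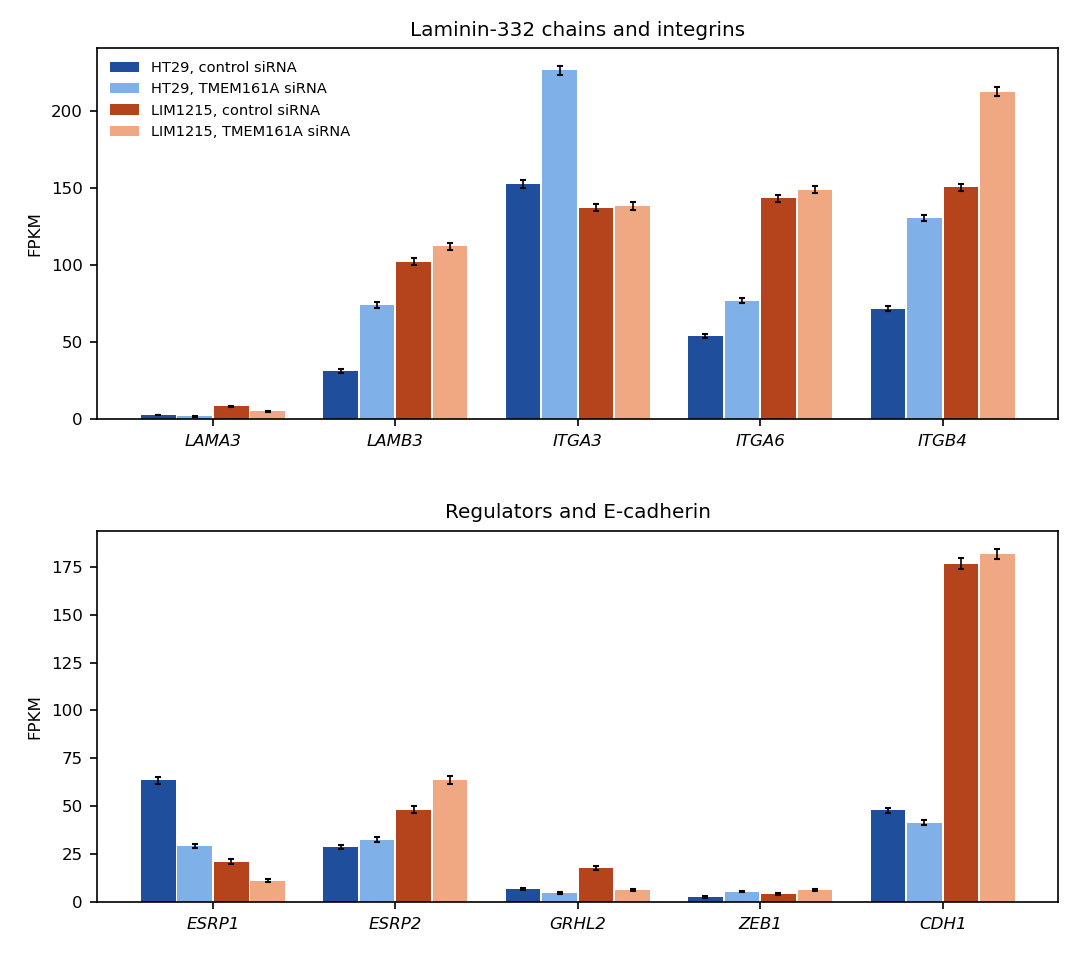
FPKM in the 4 libraries, 1 library per bar, on linear axes that start at 0, of 2 laminin-332 chains with integrin receptor chains (top) and of epithelial regulators, ZEB1 and E-cadherin (bottom), with 95% counting intervals (exact Poisson) of each library as error bars. LAMB3 is at 31.3 and 74.1 FPKM in HT29 where LAMA3 is at 2.99 and 1.999, ITGB4 is higher and ESRP1 lower in the knockdown library of both lines.

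The remaining integrin chains were ITGA3, ITGB1, ITGA2 and ITGA5. ITGA3, which pairs with ITGB1 as a further laminin-332 receptor, was at 152 and 226 FPKM in HT29, 148% of control (145% to 152%), and at 137 and 138 in LIM1215, 101% of control (98.3% to 103%). ITGB1 was at 203 and 234 FPKM in HT29, 116% of control (113% to 118%), and at 260 and 223 in LIM1215, 85.9% of control (84.1% to 87.8%). ITGA2, the alpha chain of a collagen receptor, lay between 13.0 and 14.7 FPKM in all 4 libraries. ITGA5, the alpha chain of the fibronectin receptor, was at 35.4 and 34.6 FPKM in HT29 and at 18.0 and 21.2 in LIM1215. None of the 6 chains was called in either line.

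The urokinase system was abundant, and its receptor lay above control in one line and below it in the other. PLAU, the protease urokinase that activates plasminogen at the cell surface, was at 147 and 143 FPKM in HT29 and at 87.1 and 70.8 in LIM1215. That was 96.8% of control in HT29 (93.5% to 100.1%) and 81.3% in LIM1215 (77.4% to 85.4%). PLAUR, its receptor, was at 39.6 FPKM with the control and 57.0 with the TMEM161A siRNA in HT29, and at 57.9 and 45.0 in LIM1215 in the same order. The PLAUR knockdown library was at 144% of control in HT29 (133% to 157%) and at 77.7% in LIM1215 (71.5% to 84.4%). The 2 metalloproteinases were lower in level. MMP14, a membrane-anchored collagenase, was at 8.65 and 8.06 FPKM in HT29 and at 5.98 and 5.64 in LIM1215, with intervals that held no change in both lines. MMP7, a small secreted protease known from colorectal tumours, was at 2.39 and 2.91 FPKM in HT29 and at 2.93 and 1.76 in LIM1215. Its LIM1215 value of 60.2% of control (37.4% to 95.7%) rested on an estimated 48.6 and 32.8 fragments.

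Matricellular proteins modulate adhesion without forming fibres, and SPARC was the one below control in both lines to a similar extent. SPARC, a collagen-binding glycoprotein (chromosome 5, 151661096 to 151686975, minus strand), stood at 41.1 FPKM with the control and 25.3 with the TMEM161A siRNA in HT29, and at 42.8 and 25.3 in LIM1215 in the same order. The knockdown library was at 61.7% of control in HT29 (58.1% to 65.5%) and at 59.2% in LIM1215 (55.6% to 63.0%). The log2 ratios, -0.68 and -0.73, stayed short of 2-fold.

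CCN1 and CCN2 are secreted proteins widely used as readouts of YAP and TEAD. CCN1 was at 161 and 197 FPKM in HT29, 122% of control (119% to 126%), and at 62.0 and 79.4 in LIM1215, 128% of control (122% to 135%). CCN2, whose promoter holds 3 TEAD matches above, lay between 12.9 and 14.8 FPKM in all 4 libraries with intervals that held no change. Among controls, CCN1 was 10.9 times CCN2 in HT29 and 4.79 times in LIM1215. THBS1, the adhesive glycoprotein thrombospondin, was at 36.1 and 41.3 FPKM in HT29 and at 104 and 102 in LIM1215.

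TGFBI, a matrix protein induced by TGF-beta, was far higher in LIM1215. It was at 20.9 and 15.4 FPKM there, 73.6% of control (66.9% to 81.0%), and at 0.4999 and 0.245 in HT29, an estimated 26.7 and 13.3 fragments. TNC, the glycoprotein tenascin, did not pass the filter. Of the collagen genes, COL1A1, which encodes a chain of fibrillar type I collagen, was at 17.6 and 16.0 FPKM in HT29, 90.8% of control (85.3% to 96.5%). In LIM1215 it was at 4.83 and 8.56 FPKM, 177% of control (159% to 198%; log2 ratio 0.71). COL5A1 and the crosslinking enzyme LOX stayed under 0.263 FPKM.

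Of the contractile proteins, TAGLN had the largest differences under the siRNA, but its signal cannot be told apart from that of a neighbour. TAGLN, the actin-binding protein transgelin, stood at 3.93 FPKM with the control and 8.68 with the TMEM161A siRNA in HT29, and at 13.0 and 26.4 in LIM1215 in the same order. The knockdown library was at 221% of control in HT29 (193% to 254%; log2 ratio 0.98) and 203% in LIM1215 (187% to 220%; log2 ratio 0.97), just short of the threshold on the log2(FPKM + 1) scale. On chromosome 11, TAGLN shares 2233 of its 6550 exonic bases, 34.1%, with PCSK7 on the opposite strand. PCSK7, a proprotein convertase gene, was at 9.74, 21.6, 30.3 and 53.6 FPKM in the same order of libraries. The ratio of TAGLN to PCSK7 was nearly constant, 0.403 in both HT29 libraries, then 0.429 with the control and 0.492 with the TMEM161A siRNA in LIM1215. Whether strand was used in counting is not given in the sources used here, so the part of each gene in these values was not tested.

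MYL9, the regulatory light chain of myosin, was at 36.7 and 48.5 FPKM in HT29, 132% of control (125% to 140%). In LIM1215 it was at 19.3 and 24.6 FPKM, 127% of control (117% to 139%). ACTA2, from the fibroblast markers above, lay above control, at 265% in HT29 (194% to 365%) and 172% in LIM1215 (129% to 230%). It rested on an estimated 57.0 to 153 fragments in HT29. DES, the only other of those markers that passed the filter, was at 85.4% (61.6% to 118%) and 73.3% (41.0% to 130%). Of those that did not pass, PDGFRB lay below control in both lines, with intervals that left out no change. The COL3A1 interval held no change in HT29 (85.4% to 378%) and lay above it in LIM1215 (107% to 337%). THY1 was listed at 0 in both controls and rested on an estimated 2.32 and 1.93 fragments after knockdown, too few to give a direction. Overlap of ACTA2 with other genes was not examined, and its part in these differences was not tested. TPM1, an actin-binding tropomyosin, was at 16.7 and 13.7 FPKM in HT29 and at 165 and 176 in LIM1215. It separated the lines by 9.92-fold (8.89 to 11.1) between the controls.

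Of the secreted regulators, IGFBP3, which binds insulin-like growth factors, was below control in both lines. IGFBP3 was at 0.961 and 0.381 FPKM in HT29 and at 15.3 and 7.73 in LIM1215. That was 39.7% of control in HT29 (22.3% to 68.0%), from an estimated 49.3 and 19.8 fragments, and 50.6% in LIM1215 (44.5% to 57.5%). Its log2 ratios were -0.51 and -0.90. INHBA, a subunit of activin, did not pass the filter.

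Counted over the 31 genes that passed, TMEM161A knockdown left most of these genes within 2-fold of control. In HT29, 1 gene (LAMB3) was called higher, against 1.85% of all genes tested, and 1 (ESRP1) lower, against 1.95%. In LIM1215, 0 were called higher, against 1.68% of all genes, and 1 (GRHL2) lower, against 1.78%. No gene of the 31 was called in the same direction in both lines, where 0.277% of all genes were called higher and 0.466% lower. Each count of 1 is 3.23% of the genes and is near its background. The median log2 ratio of the 31 was 0.04 in HT29 and 0.03 in LIM1215, against 0.04 and 0.02 over all genes.

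A looser count asked in how many genes the counting interval left out no change. In both lines it lay above no change for 8 of the 31, 25.8%, namely ZEB1, ESRP2, ITGA6, ITGB4, LAMB3, CCN1, TAGLN and MYL9, against 21.8% of the 12217 protein-coding genes so measured. It lay below for 6, 19.4%, namely ESRP1, GRHL2, LAMA3, TGFBI, SPARC and IGFBP3, against 17.2%. It lay on opposite sides for 5, 16.1%, namely CDH1, PLAUR, ITGB1, COL1A1 and TPM1, against 11.7%. These shares are close to those of all genes, and the interval leaves out the variation between cultures. The plot of one line's response against the other's shows where the named genes lie.

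**Figure D3:**
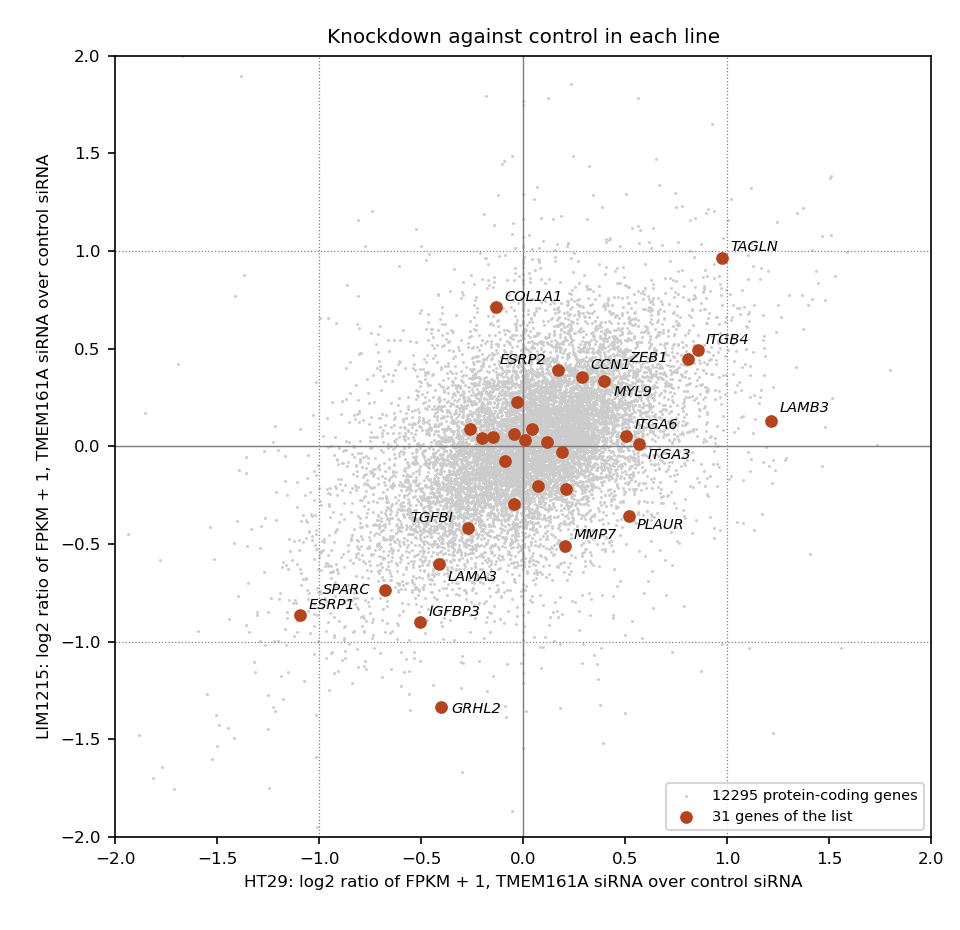
Log2 ratio of FPKM + 1, TMEM161A siRNA over control siRNA, in HT29 (x axis) and LIM1215 (y axis) for the 31 genes that passed the filter (coloured) and the 12295 protein-coding genes tested (grey; 18 lie outside the axes). Most of the 31 lie inside the 2-fold lines; LAMB3 and ESRP1 pass them in HT29 and GRHL2 in LIM1215.

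The gaps between the lines were wider in these genes than those between the siRNAs, with a median absolute log2 ratio of 1.01 between the controls, 0.81 between the TMEM161A siRNA libraries, 0.26 for the siRNA in HT29 and 0.30 in LIM1215. Over all genes the same medians were 0.42, 0.43, 0.24 and 0.22. Between the control libraries, 11 of the 31 were called higher in LIM1215, 35.5%, against 12.0% of all genes, and 5 were called lower, 16.1%, against 7.42%. The higher group was GRHL2, CDH1, ITGA6, ITGB4, LAMA3, LAMB3, TGFBI, THBS1, TAGLN (not told apart from PCSK7), TPM1 and IGFBP3, and the lower group was TWIST1, ESRP1, FN1, CCN1 and COL1A1. TGFBI and IGFBP3 were under 1 FPKM in both HT29 libraries, and TWIST1 in both LIM1215 libraries. They passed the filter on the mean only through the line where they were high, so their calls are not independent of the filter. Rescaling FPKM to a common sum lowered the median log2 ratio of all genes in this comparison by 0.16, and upper quartile scaling lowered it by 0.13. The share of higher genes among all called genes was 61.7% as deposited and 50.6% after that rescaling. Of the 31, ITGB4, called higher at 1.06, lay nearer to the threshold than the shift of 0.16. So did ITGA5 (-0.94) and MYL9 (-0.90), which were not called lower. The balance of higher and lower genes thus depends in part on the scaling.

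Between the TMEM161A siRNA libraries, 7 of the 31 were called higher in LIM1215, 22.6%, against 12.7% of all genes, and 4 lower, 12.9%, against 8.53%. This comparison shares no library with that of the controls. In both, 7 genes were called higher, CDH1, LAMA3, TGFBI, THBS1, TAGLN, TPM1 and IGFBP3, against 9.48% of all genes. In both, 3 were called lower, TWIST1, ESRP1 and CCN1, against 5.02%. TGFBI, IGFBP3 and TWIST1 are again those that passed the filter only through the line where they were high. GRHL2, ITGA6, ITGB4 and LAMB3 were called between the controls and not between the siRNA libraries, and how far the 2 comparisons differ was not tested.

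TGFBI had the widest gap, though it passed the filter only through LIM1215, as did IGFBP3. TGFBI was 41.8-fold (28.5 to 64.0) higher in LIM1215 between the controls and 62.8-fold (36.7 to 118) between the siRNA libraries. IGFBP3 followed at 15.9-fold (11.9 to 21.7) and 20.3-fold (12.9 to 33.7), and TPM1 at 9.92-fold and 12.8-fold (11.4 to 14.4). In the other direction, ESRP1 was 2.997-fold (2.82 to 3.18) higher in HT29 between the controls and 2.61-fold (2.41 to 2.83) between the siRNA libraries. CCN1 was 2.60-fold (2.48 to 2.72) and 2.48-fold (2.38 to 2.58) higher in HT29. Among the called genes, LIM1215 had more CDH1 together with more TGFBI and TPM1, and HT29 had more ESRP1 together with more TWIST1. COL1A1 was called higher in HT29 between the controls only, and TWIST1 passed the filter only through HT29. These few genes do not tell whether a line leans to epithelial or mesenchymal genes. In the lists of related genes described below, 5 of 15 epithelial adhesion genes were higher in LIM1215 in both comparisons and 0 lower. Of 21 other matrix genes, 3 were higher and 5 lower.

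**Figure D4:**
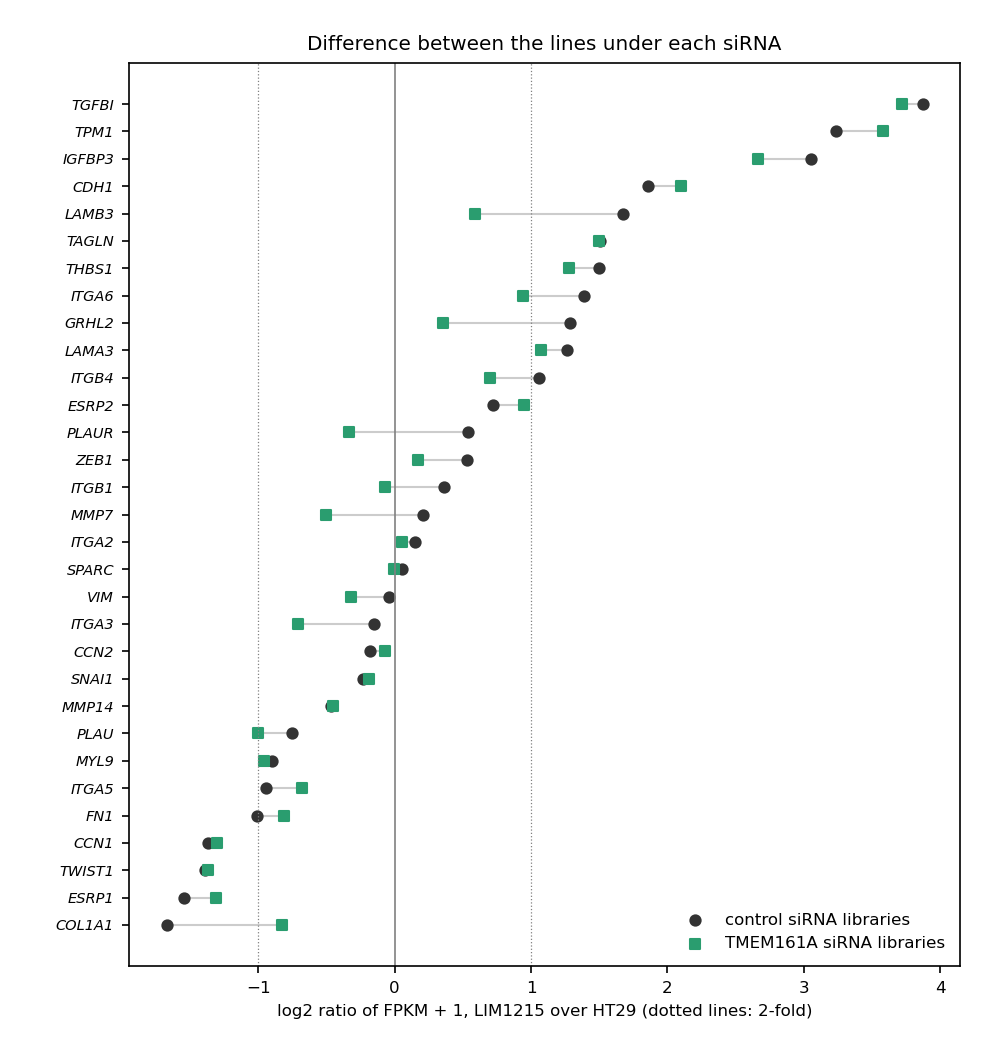
Log2 ratio of FPKM + 1, LIM1215 over HT29, for the 31 genes that passed the filter, in the control siRNA libraries and in the TMEM161A siRNA libraries (1 library of each line per comparison). TGFBI, TPM1 and IGFBP3 are higher in LIM1215 by 2.66 or more on the log2 scale in both comparisons, and TWIST1, ESRP1 and CCN1 lower by 1.30 or more.

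Related genes outside the 38 were read from 8 lists of 140 genes, of which 105 passed the filter. In HT29, 4 of the 105 (3.81%) were called higher, against 1.85% of all genes, and 2 (1.90%) lower, against 1.95%. In LIM1215, 1 (0.952%) was called higher, against 1.68%, and 0 lower, against 1.78%. None was called in both lines in either direction, against 0.277% of all genes higher and 0.466% lower. Among 10 YAP and TEAD targets, 3 were called higher in HT29, against 1.85% of all genes, and 0 in LIM1215, against 1.68%. The median log2 ratio of the 10 was 0.19 in HT29 and -0.08 in LIM1215, against 0.04 and 0.02 over all genes. The 3 were F3, the tissue factor that starts coagulation (log2 ratio 1.21), PTPN14, a phosphatase that restrains YAP (1.10), and AXL, a receptor kinase tied to motility (1.08). Their LIM1215 log2 ratios were -0.10, 0.68 and 0.15. SERPINB5, the serpin maspin, rose in HT29 by 1.13 on the log2 scale. SPP1, the adhesive phosphoprotein osteopontin, fell by 1.13 in HT29, and DSC2, a desmosomal cadherin, fell by 1.30. In LIM1215, PLAT, the tissue plasminogen activator, rose by 1.05. None of the 20 focal adhesion genes, the 8 other integrin chains or the 8 other laminin chains that passed was called in either line. The same held for the 6 other transition factors and epithelial repressors that passed.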

How the data were processed

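The authors deposited 1 table per library with FPKM for 60658 Ensembl genes. Per the labels' protocols, RNA was extracted with the miRNeasy Micro kit and libraries were made with the TruSeq Stranded mRNA kit. The submitters' processing notes name GRCh38, HISAT2 2.1.0, SAMtools 1.20, Cufflinks 2.2.1 and Cuffdiff, with no role or order. The annotation, the use of strand and any filter are not given in the sources used here. FPKM is relative to a library's fragments, so abundant genes lower all others.

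Symbols and positions came from GENCODE release 44 on GRCh38, which held 56550 of the identifiers. The measure was the log2 ratio of FPKM with a pseudocount of 1, which understates changes of low genes, for genes with a mean FPKM of at least 1. With 1 library a group no test was run and no p-value is given. Depth was estimated from the steps of low FPKM values: 80.4% to 82.6% of them lay within 0.03 of a whole number of fragments, against 6% without steps. Fragments of a gene were then estimated from its canonical transcript length less a fitted 202 bases, and counting intervals used genes with transcripts of at least 500 bases. The scripts were tested on simulated data. Python 3.11.15, pandas 2.3.3, scipy 1.17.1 and matplotlib 3.10.9 were used.

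Alternatives were a pseudocount of 0.1 or 5, no filter or a mean FPKM of at least 5, centring, rescaling to a common sum, upper quartile scaling and a 1.5-fold threshold. The share of protein-coding genes called was added after the data were seen. Genes, lists and rules were chosen with earlier results of these data known. All 38 genes are named. From the 8 lists of related genes, at most the 3 largest rises and falls past 2-fold per comparison are named, and promoters of at most 5 genes are shown. The result for 1 related gene is not reported here.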

Additional observations from a re-analysis of the deposited data

Results flagged for a closer look

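In 5 of the 38 genes the knockdown library lay above control in one line and below it in the other, with counting intervals that left out no change in both lines. With 1 library per group the difference between the lines was not tested. The LIM1215 response minus the HT29 response, in log2 units, was 0.24 for CDH1 (E-cadherin), -0.87 for PLAUR (the urokinase receptor), -0.43 for ITGB1 (integrin beta 1), 0.84 for COL1A1 (a type I collagen chain) and 0.35 for TPM1 (a tropomyosin). Such opposite responses were counted in 11.7% of protein-coding genes. CDH1 and TPM1 were no longer among them when log2 ratios were centred on the median of all genes.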

How the results depend on the processing

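No paired analysis was possible because each group has 1 library. No log2 ratio of a called gene changed sign under any alternative. Changes of sign were seen for values near 0, of TWIST1, SNAI1, ITGA2 and ITGA3 between siRNAs and of ITGA2 and SPARC between lines. With a pseudocount of 0.1, TAGLN (not told apart from PCSK7) was called higher in both lines. That made 2 genes called higher in HT29, 1 in LIM1215 and 1 in both. IGFBP3 joined ESRP1 to make 2 called lower in HT29. That pseudocount called 3.85% of all genes higher and 3.77% lower in HT29, and 3.22% and 3.43% in LIM1215. With a pseudocount of 5, 0 genes were called lower in LIM1215 (GRHL2 at -0.99), 3 were lower in LIM1215 between the controls and 2 between the siRNA libraries. The shares of all genes called lower in these comparisons were then 0.594%, 2.38% and 3.32%. At 1.5-fold, 4 genes were called higher and 2 lower in HT29, and 2 higher and 5 lower in LIM1215. In both lines 1 was higher (TAGLN, not told apart from PCSK7) and 2 lower (ESRP1, SPARC). The same threshold called 7.87% of all genes higher and 6.91% lower in HT29, and 6.63% and 6.18% in LIM1215. Between the lines at 1.5-fold, 8 genes were lower in LIM1215 in the controls, 11 higher and 9 lower in the siRNA libraries, and 11 higher and 8 lower in both. Of all genes, 21.8% were higher and 16.3% lower at 1.5-fold in the controls, and 21.7% and 17.3% in the siRNA libraries. Shares of all genes called in both lines or in both siRNA conditions under these alternatives are not given here, so those counts have no background. The median log2 ratio between the controls went from 0.21 to 0.078 without the filter and to 0.080 after rescaling to a common sum, and that between the siRNA libraries from -0.07 to -0.20 under upper quartile scaling. The cause was not tested. Counts by counting interval ran from 7 to 8 above, 6 to 7 below and 4 to 6 opposite over the scalings. Over protein-coding genes alone, a comparison added after the data were seen, 0.960% were called higher and 1.26% lower in HT29, and 0.756% and 0.887% in LIM1215. Low values limit TWIST1, MMP7, TGFBI and IGFBP3, whose HT29 or LIM1215 libraries hold under 100 estimated fragments.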

Other observations

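Of the 105 related genes that passed the filter, 24 (22.9%) were called higher in LIM1215 between both the control and the TMEM161A siRNA libraries, against 9.48% of all genes, and 11 (10.5%) were called lower in both, against 5.02%. Of 15 epithelial adhesion genes, 5 (33.3%) were higher in LIM1215 in both, against that 9.48%, and 0 lower, against 5.02%. CDH17, an intestinal cadherin, was at 165 FPKM in the LIM1215 control and 0.243 in the HT29 control. EPCAM, a cell surface adhesion protein of epithelia, was at 503 and 168 FPKM in these libraries, and PKP2, a desmosomal plaque protein, at 71.2 and 20.1. Of the 6 other transition factors and epithelial repressors that passed, 4 (66.7%) were higher in LIM1215 in both and 0 lower, against the same shares. That list mixes factors of the transition with factors of epithelial identity, so its count has no single direction. Of the 4, GRHL3, a relative of GRHL2, was at 7.45 FPKM in the LIM1215 control and 0.254 in the HT29 control. CDH17 and GRHL3 were under 1 FPKM in the HT29 control and passed the filter on the mean through LIM1215. Their calls, and the counts that hold them, are therefore not independent of the filter. How many of the other called genes passed in this way was not counted.

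Matrix genes split between the lines. COL17A1, a hemidesmosomal collagen, was at 9.19 FPKM in the LIM1215 control and 0.292 in the HT29 control, and COL4A2, a basement membrane collagen chain, at 13.7 and 0.346. In contrast VCAN, a proteoglycan of loose matrix, was at 12.9 FPKM in the LIM1215 control and 37.3 in the HT29 control, LOXL2, a collagen crosslinking enzyme, at 9.80 and 33.6, and COL6A2, a chain of type VI collagen, at 9.22 and 32.7. CAV1, the caveolar protein caveolin, was at 107 and 325 FPKM, and TIMP2, a metalloproteinase inhibitor, at 14.2 and 41.0. These are values of 1 library each. COL17A1 and COL4A2, under 1 FPKM in the HT29 control, passed the filter on the mean through LIM1215. Their calls are not independent of it.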
